A study of Saccharomyces cerevisiae with 4 samples.

Results

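The genes described here are the 9 silencing factors SIR1 (YKR101W), SIR2 (YDL042C), SIR3 (YLR442C), SIR4 (YDR227W), HST1 (YOL068C), HST2 (YPL015C), HST3 (YOR025W), HST4 (YDR191W) and RAP1 (YNL216W) of budding yeast, Saccharomyces cerevisiae. They were taken by name, with no use of their values, from the 5500 reading frames of the value table. Polyadenylated RNA of a strain named bre1 and of a wild-type strain was compared on 4 2-colour microarrays, each carrying the 2 samples in different dyes, Cy3 and Cy5. On arrays 1 and 3 the bre1 sample was in Cy3 and the wild-type sample in Cy5, and arrays 2 and 4 had the dyes the other way round. The labels give no mating type, strain background, allele or growth condition, and do not state that separate cultures were used, so every p here reflects array-to-array spread that could be technical alone. Each value is a log ratio per frame and array, read as log2 of bre1 over wild type; neither the base nor the direction is stated, and the direction is likely but not settled.

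Silencing in budding yeast keeps the spare mating-type genes at HML and HMR, genes near telomeres and part of the ribosomal DNA from being transcribed. Sir1 and Rap1 bring the complex of Sir2, Sir3 and Sir4 to DNA, Sir2 removes acetyl groups from histone tails at the cost of NAD, and Sir3 and Sir4 bind the deacetylated tails. Hst1 to Hst4 are the relatives of Sir2 and also use NAD. Bre1 is the ligase that attaches ubiquitin to histone H2B, on which the H3 methyltransferases Set1 and Dot1 depend, and Sir3 binds H3 less well where Dot1 has methylated it.

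None of the silencing genes that could be tested passed between bre1 and wild type. Of the 9, the 4 HST genes had values on all 4 arrays and were tested, and 0 of these 4 had an adjusted p under 0.05 by limma (two-sided, mean against 0), where 10.7% of all 3840 tested genes did. The 410 genes behind that share depended on the arrays: limma called 54 without array 1, 0 without array 2 (815 at an unadjusted p under 0.05), 187 without array 3 and 677 without array 4. For the HST genes at an unadjusted p under 0.05 the count was 1 of 4, HST2, beside 30.2% of all tested genes. SIR1, SIR2 and RAP1 had values on 3 arrays each, SIR3 on 1 and SIR4 on none, and these 5 are described without a test. With genes on at least 3 arrays taken in as an alternative, 0 of 7 silencing genes passed, beside 9.01% of all genes in that fit. Over the 26 values that the 9 genes had in all, the lowest was -0.59 (HST2, array 1) and the highest 0.72 (SIR1, array 2). BRE1 itself, the gene the strain is named for, had log2 ratios of -1.65 and -3.17 on arrays 1 and 3, both with bre1 RNA in Cy3. It had no value on arrays 2 and 4, so its ratio was not read with bre1 RNA in Cy5.

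**Figure D1:**
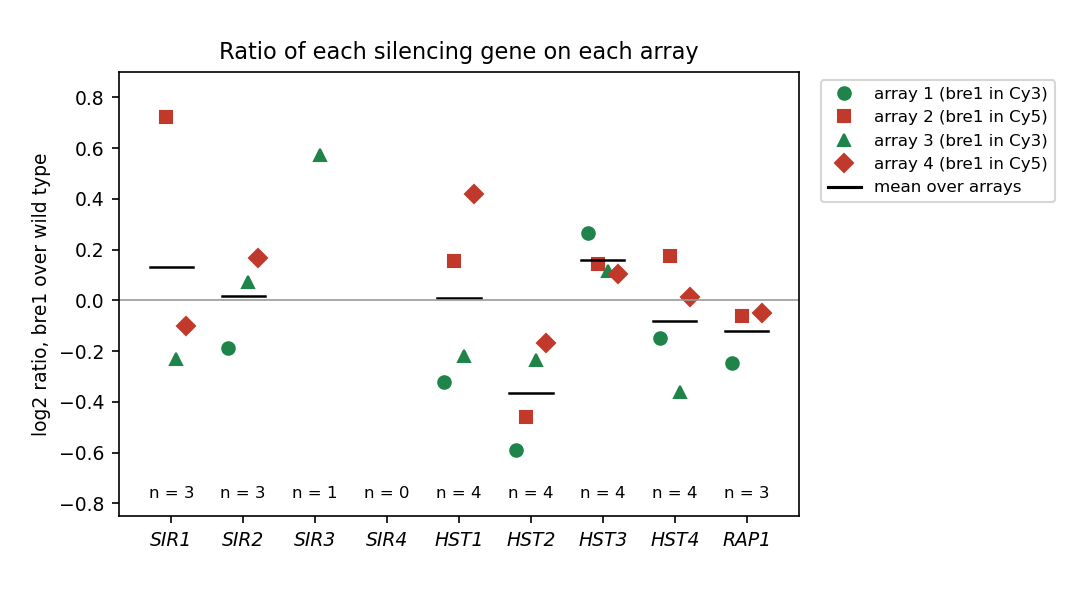
Log2 ratio of bre1 over wild type (vertical axis) for each of the 9 silencing genes on each array; symbols mark the arrays, green those with bre1 RNA in Cy3 and red those with bre1 RNA in Cy5, and the bar is the mean over arrays. HST2 lies below 0 and HST3 above 0 on all 4 arrays, HST1 and HST4 lie on both sides of 0, SIR3 has a single point and SIR4 none.

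The SIR genes were measured in part. SIR1, whose product is drawn to the silencers of HML and HMR, had log2 ratios of 0.72, -0.23 and -0.10 on arrays 2, 3 and 4 and no value on array 1. Array 2 stood high, above 90.1% of all frames measured on it, while the values on arrays 3 and 4 lay above 33.0% and 34.3% of theirs. The mean was 0.13 ± 0.52 (SD, n = 3 arrays), and without array 2 it was -0.17, so that its sign rested on that array.

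SIR2, the NAD-dependent histone deacetylase of the complex, had log2 ratios of -0.19, 0.07 and 0.17 on arrays 1, 3 and 4 and no value on array 2. The values lay on both sides of 0, with a mean of 0.018 ± 0.18 (SD, n = 3), a difference smaller than the spread. SIR3, the subunit that binds nucleosomes and spreads along them, was measured on array 3 alone, at 0.57, which is 1.49-fold higher in bre1 and above 90.7% of the frames on that array; a single array gives no spread. SIR4, the scaffold that joins Sir2 and Sir3, had no value on any array, so nothing can be said of its transcript. SIR1 and SIR2 can be set side by side on arrays 3 and 4 alone, where SIR1 was lower by 0.30 and 0.27 on the log2 scale.

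The HST genes were measured in full. HST1 encodes the closest relative of Sir2, which acts with Sum1 and Rfm1 to repress middle sporulation genes and genes of NAD synthesis. Its log2 ratios were -0.32, 0.16, -0.22 and 0.42 on arrays 1 to 4. The values were above 0 on arrays 2 and 4 and below 0 on arrays 1 and 3, and the mean was 0.0078 ± 0.34 (SD, n = 4, limma adjusted p = 0.980). The 95% interval of the mean, from limma without adjustment, ran from -0.38 to 0.40. HST1 and SIR2 are related in sequence, and whether their probes read each other's transcripts was not tested.

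HST2 encodes a deacetylase found mostly in the cytoplasm. Its log2 ratios were -0.59, -0.46, -0.24 and -0.17 on arrays 1 to 4, lower in bre1 on every array. In RNA of a whole culture, fewer cells that express a gene and less RNA per cell cannot be told apart. The mean was -0.36 ± 0.20 (SD, n = 4), a 1.29-fold difference. In the limma fit its p was 0.0402 unadjusted and 0.146 adjusted over all 3840 genes, so it did not pass. Its 95% interval ran from -0.71 to -0.020. In size this mean was exceeded by 35.4% of all tested genes.

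HST3 and HST4 encode the deacetylases that take the acetyl mark of newly made histone H3 off chromatin after replication. HST3 had log2 ratios of 0.27, 0.15, 0.12 and 0.10 on arrays 1 to 4, all above 0 and close together. Its mean was 0.16 ± 0.07 (SD, n = 4, limma adjusted p = 0.493), a 1.12-fold difference, and 1.69% of tested genes had a smaller SD. limma draws each gene's variance toward the common one, and the 95% interval ran from -0.16 to 0.48. HST4 had log2 ratios of -0.15, 0.18, -0.36 and 0.013, above 0 on arrays 2 and 4 and below 0 on arrays 1 and 3. Its value on array 4 lay above 44.5% of the frames measured there. Its mean was -0.08 ± 0.23 (SD, n = 4, limma adjusted p = 0.766), with an interval from -0.43 to 0.27. The intervals of HST1, HST3 and HST4 hold 0, and their outermost bound is a 1.39-fold higher level in bre1, for HST3. That of HST2 reaches a 1.63-fold lower level in bre1.

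**Figure D2:**
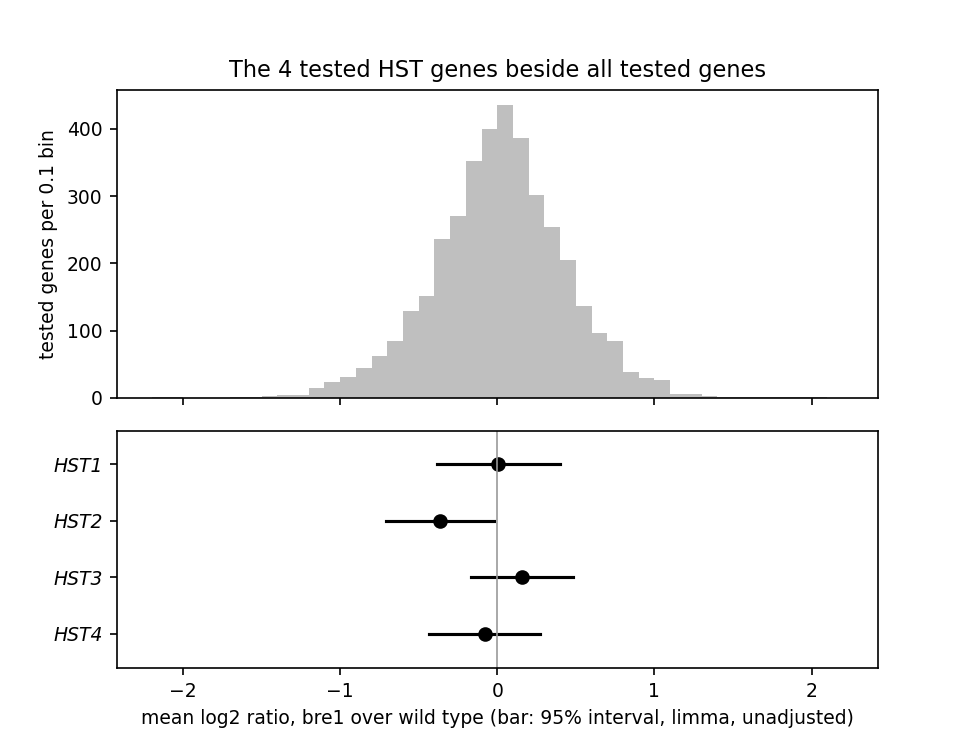
Above, the number of tested genes per bin of mean log2 ratio, bre1 over wild type, for all 3840 tested genes; below, the mean of HST1 to HST4 on the same axis, with its unadjusted 95% interval from limma as a bar. The means lie between -0.36 (HST2) and 0.16 (HST3), within the bulk of the tested genes, 90% of which lie between -0.70 and 0.71.

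RAP1 encodes the DNA-binding protein that sits at the silencers and telomere repeats and also activates ribosomal protein genes. It had log2 ratios of -0.25, -0.063 and -0.051 on arrays 1, 2 and 4 and no value on array 3. All 3 were below 0, array 1 the lowest, and the mean was -0.12 ± 0.11 (SD, n = 3), a 1.09-fold difference. Without array 1 the mean was -0.057.

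In the order of mean log2 ratio the genes ran SIR3 (1 array), HST3, SIR1, SIR2, HST1, HST4, RAP1 and HST2. Means over different arrays are not fully comparable, so neighbours were compared on the arrays they share. HST3 and SIR1 differed by -0.0081 ± 0.50 over 3 arrays (HST3 minus SIR1), SIR2 and HST1 by 0.059 ± 0.28 over 3 (SIR2 minus HST1), and HST1 and HST4 by 0.088 ± 0.25 over 4 (HST1 minus HST4), each less than its SD. SIR1 lay below SIR2 by 0.29 on average on the 2 arrays they share, against their order by mean, in which SIR1 stands higher through its value on array 2. HST4 exceeded RAP1 by 0.13 ± 0.093 and RAP1 exceeded HST2 by 0.29 ± 0.15, each on 3 of 3 shared arrays and by more than the SD. The members with the highest and the lowest mean among those on all 4 arrays, HST3 and HST2, differed by 0.52 ± 0.26 (HST3 minus HST2), with differences of 0.27 to 0.86 on the 4 arrays. These pairs were picked by their order in the same values, so no test of their differences is given.

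The genes differed in how their values followed the dyes. The medians of all tested genes, on which the main values were not centred, were -0.0054, 0.087, -0.079 and 0.096 on arrays 1 to 4. These medians were themselves higher on the arrays with bre1 in Cy5, and the dye differences given here include that shift. HST1 averaged 0.29 on the arrays with bre1 RNA in Cy5 and -0.27 on those with bre1 RNA in Cy3, a difference of 0.56 that 26.8% of tested genes exceeded in size. HST4 averaged 0.09 with bre1 in Cy5 and -0.26 with bre1 in Cy3. For these 2 of 4 tested genes both Cy5 arrays lay above both Cy3 arrays, as for 35.9% of all tested genes, so that a mean near 0 stands for values of opposite sign.

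HST2 averaged -0.31 with bre1 in Cy5 and -0.41 with bre1 in Cy3, and HST3 averaged 0.12 with bre1 in Cy5 and 0.19 with bre1 in Cy3. For both genes the orientations overlapped. HST2 and HST3 kept 1 sign on all 4 arrays, as 35.7% of all tested genes did (16.6% below 0 throughout, like HST2, and 19.1% above 0, like HST3). Their dye differences, 0.10 and -0.07 (Cy5 minus Cy3), were exceeded in size by 84.8% and 89.8% of tested genes. SIR1 averaged 0.31 with bre1 in Cy5 and -0.23 with bre1 in Cy3, SIR2 0.17 and -0.058, and RAP1 -0.057 and -0.25. Each had values on 3 arrays, so the orientations were not equally covered. The part of a dye bias in the values of all these genes was not tested.

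**Figure D3:**
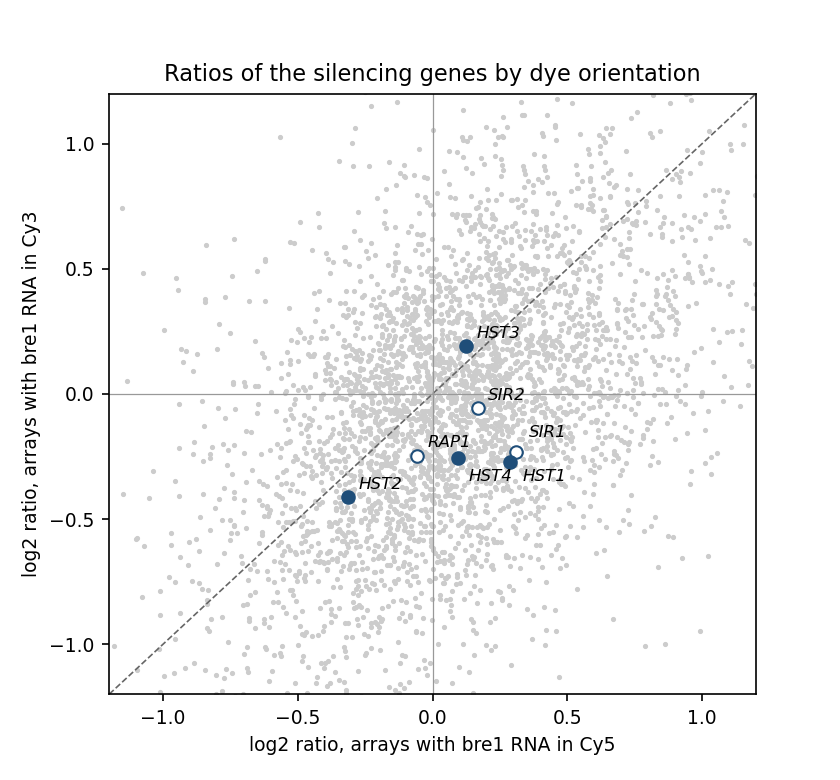
Mean log2 ratio on the arrays with bre1 RNA in Cy5 (horizontal) and in Cy3 (vertical); grey points are tested genes (188 of 3840 lie beyond 1.2 on an axis and are not drawn), filled circles the genes with 4 values and open circles those with 3, and the dashed line marks equality. HST1 (0.29 and -0.27), HST4 (0.09 and -0.26), SIR1 (0.31 and -0.23) and SIR2 (0.17 and -0.058) fall in the quadrant of opposite signs. HST2 and HST3 lie near the line.

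Missing values fell mostly on the SIR genes. SIR1 to SIR4 had 7 of 16 possible values (43.8%) and HST1 to HST4 had 16 of 16, beside 83.1% over all 5500 frames. A value on every array was present for 69.8% of all frames and absent on every array for 8.62%. By annotated length, SIR3 (2937 bp), SIR4 (4077 bp) and RAP1 (2484 bp) are in the class over 2000 bp, where 67.7% of frames had 4 values, and HST2 to HST4 (1074 to 1344 bp) in the class of 1000 to 1500 bp, where 73.5% did. SIR1, SIR2 and HST1 fall in the class between, with 74.6%. The median log2 ratio of tested genes in these 3 classes lay between -0.065 and -0.016, beside 0.024 for all tested genes. The reason for the gaps is not given in the sources used here.

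The genes whose ratios ran closest to each HST gene were found by the root mean square difference over the 4 arrays, among 3839 other genes. For HST1 these were SAS5, CSI2 and RHO3, at differences of 0.04, 0.05 and 0.06 log2 units, where the median gene was at 0.49. SAS5, a subunit of the acetyltransferase that acts on the histone H4 site deacetylated by Sir2, had -0.40, 0.14, -0.22 and 0.42 on arrays 1 to 4. Its split by dye, the same as for HST1, follows from its being picked as closest on these values. For HST2 they were SPE4 (spermine synthase), MOH1 and PHM8, at 0.07 to 0.08, with means of -0.34 to -0.35.

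For HST3 they were SRF1, ARD1 and PRI2, all at 0.05. ARD1, the catalytic subunit of an N-terminal acetyltransferase that also modifies Sir3, had 0.20, 0.16, 0.17 and 0.15 on arrays 1 to 4, while PRI2 encodes a subunit of DNA primase. For HST4 they were DFG16, FMP30 and RNH70, at 0.03 to 0.04. None of these 12 genes passed the test, but they were picked as closest to genes that did not pass, so this adds nothing. With 4 arrays such likeness is a description only.

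Genes whose products act with the silencing factors were described as lists. Of 26 listed partners (origin and silencer proteins, the SAS complex, Dot1, telomere and nucleolar anchors, chromatin assembly factors and the Sum1 complex), 19 were tested. None passed, beside 10.7% of all tested genes, with 11 means above and 8 below 0 and a median of 0.08. Unadjusted, 2 of the 19 had p under 0.05, beside 30.2% of all tested genes. They were RIF2, a Rap1-binding protein that limits telomere length, at -0.45, -0.09, -0.74 and -0.76 on arrays 1 to 4 (mean -0.51 ± 0.32, SD, limma adjusted p = 0.0811), and SAS4, a subunit of the SAS acetyltransferase, at 1.19, 0.62, 0.60 and -0.09 (mean 0.58 ± 0.53, SD, limma adjusted p = 0.101). RIF2 was below 0 on every array, and SAS4 was below 0 on array 4 alone. Both passed with a dye term (limma adjusted p = 0.0475 for RIF2 and 0.0435 for SAS4). That setting called 897 of all 3840 tested genes, beside 410 in the main fit. SAS4 also passed without array 4 (0.0207), with array weights (0.0438) and with arrays 1 and 2 and arrays 3 and 4 averaged (0.0386). Those settings called 677, 685 and 679 of all tested genes. Without array 1 the SAS4 mean was 0.37 (0.394), and SAS4 did not pass without array 2 (0.259) or array 3 (0.200) either.

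Of 7 tested partners of Rap1 at telomeres and promoters, none passed, beside 10.7% of all tested genes, with a median of 0.15. After RIF2 the smallest p was that of GCR2, a coactivator of glycolytic genes (mean 0.34 ± 0.28, SD, n = 4). None of 7 tested genes for the acetylation that Hst3 and Hst4 reverse passed, beside 10.7% of all tested genes, with a median of -0.02. None of them had an unadjusted p under 0.05 either, beside 30.2% of all tested genes. The smallest p-values there were those of RTT107 (0.24 ± 0.20) and MMS22 (-0.16 ± 0.32), which serve in replication fork repair. Of 4 tested deacetylase genes outside the Sir2 family, none passed, beside 10.7% of all tested genes, with a median of -0.18. HOS1 (-0.39 ± 0.27) and HDA1 (-0.36 ± 0.22) were below 0 on every array, as 16.6% of all tested genes were, and had unadjusted p under 0.05, as 30.2% had.

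Across all the lists only 2 distinct genes passed, BNA2 and SMK1, and the shares of called genes are not results about the lists. Of 9 tested genes of NAD supply, 1 rose, beside 5.89% of all tested genes, and none fell, with a median of -0.15. The gene that rose was BNA2, which encodes the enzyme that opens the route from tryptophan to NAD, at 1.12, 0.99, 0.80 and 0.25 on arrays 1 to 4. The fold was 1.73 in favour of bre1 (mean 0.79 ± 0.38, SD, n = 4, limma adjusted p = 0.0322), and array 4 was the lowest. The call was lost without array 1, 2 or 3 (adjusted p = 0.133, 0.137 and 0.0763), while the mean stayed at 0.68, 0.72 and 0.79. At an unadjusted p under 0.05 there were 3 of 9 genes, beside 30.2% of all tested genes. The other two, named after their values were seen, were QNS1, the NAD synthetase gene, with a mean of -0.52 ± 0.28, and BNA5, the kynureninase gene of the tryptophan route, with a mean of -0.64 ± 0.50 (SD, n = 4). Both were below 0 on every array, and their limma adjusted p was 0.0697 and 0.0730. BNA5 had -0.43 without array 1. QNS1 and BNA5 passed without array 4 (limma adjusted p = 0.0383 and 0.0281) and with a dye term (0.0408 and 0.0179), among other settings. Without array 4 limma called 677 and with a dye term 897 of all 3840 tested genes, beside 410 in the main fit.

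BNA2 is also among the genes that Sum1 and Hst1 repress, of which 7 were tested. In that list BNA2 rose and SMK1 fell, beside 4.79% of all tested genes that fell; the median was -0.24, and 2 means lay above and 5 below 0. SMK1, a kinase gene of spore wall formation, had -1.33, -0.72, -1.28 and -0.95 on arrays 1 to 4 and was 2.10-fold lower (-1.07 ± 0.29, SD, n = 4, limma adjusted p = 0.0120), with a mean of -1.19 and adjusted p = 0.0525 without array 2, a fit in which no gene passed. The called genes of the list thus lie on opposite sides of 0. At an unadjusted p under 0.05 there were 4 of 7 genes, beside 30.2% of all tested genes. Besides BNA2 and SMK1 these were BNA5, which is also in this list, and SPS2, named after its values were seen. SPS2 had a mean of -0.43 ± 0.14 (SD, n = 4, limma adjusted p = 0.0877) and, like BNA5, was below 0 on every array.

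**Figure D4:**
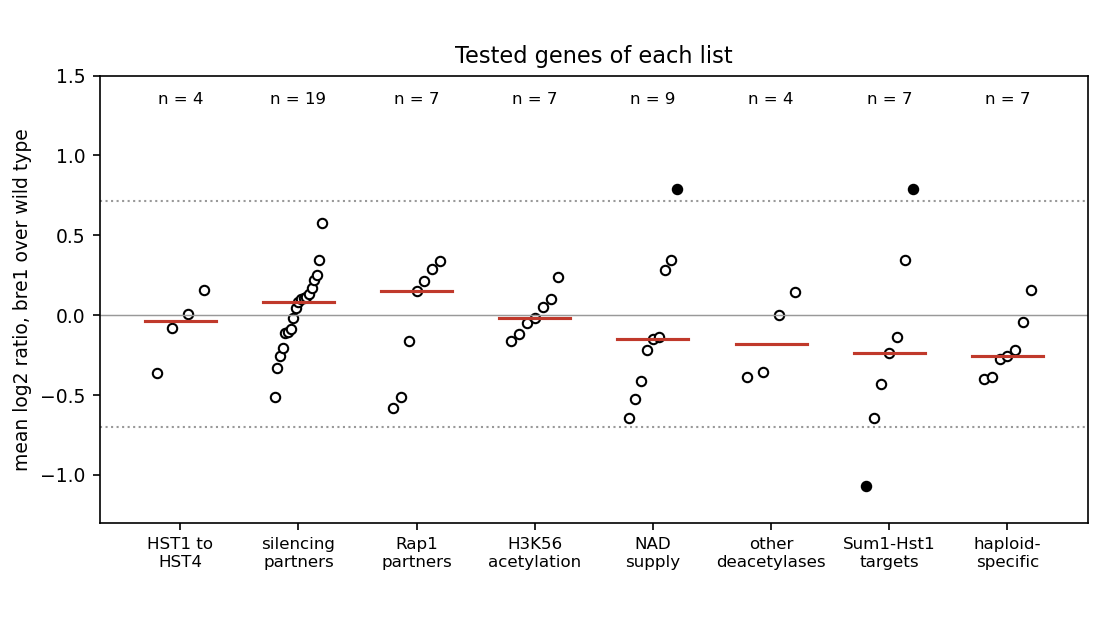
Mean log2 ratio of bre1 over wild type for the tested genes of each list; filled circles passed an adjusted p under 0.05 and open circles did not, red bars are list medians, and dotted lines hold 90% of all tested genes (-0.70 to 0.71). BNA2, which stands in both lists it belongs to, and SMK1 are the filled points; a gene of 2 lists is drawn in each.

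Genes of the mating-type loci, silent and expressed, were measured in part. HMLALPHA2, the silent copy of a mating-type regulator, had log2 ratios of 0.40, -0.48, 0.81 and -0.54 on arrays 1 to 4, and MATALPHA2, the same gene at the expressed locus, had 0.28, -0.14, 0.39 and -0.48. For both, the Cy5 arrays lay below and the Cy3 arrays above 0, a separation in this direction that 16.5% of tested genes showed, and the means were 0.046 ± 0.67 and 0.013 ± 0.40 (SD, n = 4, limma adjusted p = 0.911 and 0.966). HMRA2, which shares sequence with them, had 0.86, 0.26 and 0.76 on arrays 1 to 3 and no value on array 4. Their signals cannot be told apart where they share sequence. HMLALPHA2 and MATALPHA2 are both annotated at 633 bp as the same gene, so the HMLALPHA2 values are no measure of silencing at HML. HMLALPHA1 and MATALPHA1 had no values, and HMRA1 was not found under its systematic name, YCR097W, among the 5500 frames.

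Of 7 tested haploid-specific genes, which a cell shuts off when it expresses both mating types, none passed, beside 10.7% of all tested genes. Their median was -0.25, and 6 of the 7 means lay below 0, beside 1819 of all 3840 tested genes. At an unadjusted p under 0.05 there was 1 of 7, STE12, beside 30.2% of all tested genes. STE12, the transcription factor of the mating response, was below 0 on every array (-0.64, -0.28, -0.31 and -0.39, mean -0.40 ± 0.16, SD, limma adjusted p = 0.108). FAR1, which arrests the cycle in response to pheromone, had a mean of -0.39 ± 0.33 (SD, limma adjusted p = 0.167); it was -0.24 without array 1.

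List medians shifted with 1 array left out, each by less than the SD of that list's median over the 4 arrays. The haploid-specific median was -0.38 without array 2 and -0.14 without array 3. That of NAD supply was -0.0078 without array 1 and -0.29 without array 4, and that of the Sum1 and Hst1 targets was -0.10 without array 2 and -0.44 without array 3. The median of the silencing partners was 0.020 without array 1 and 0.032 without array 2, and that of the Rap1 partners was 0.047 without array 1. For the acetylation genes it was -0.039 without array 2 and -0.037 without array 3.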

How the data were processed

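Deposited log2 ratios of bre1 and wild type on 4 2-colour arrays were analysed; per the labels the dyes were swapped, and how the authors normalized, filtered and centred them, with their direction and log base, is not given in the sources used here. The values were taken as base 2 from the range of the values, -4.80 to 2.82. Arrays of opposite dye correlated at r of 0.20 to 0.65 over 3840 genes, so no sign was changed. For arrays of the same dye orientation r was 0.75 (arrays 1 and 3) and 0.54 (arrays 2 and 4). Array 4 correlated with arrays 1 and 3 at 0.24 and 0.20. Scanner intensities were not analysed, so dim spots could not be filtered and the number of arrays limits precision.

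The 3840 frames with values on all arrays were fitted with limma 3.58.1 in R 4.3.3 (intercept, eBayes, two-sided, Benjamini-Hochberg over all genes, threshold 0.05); the script was tested on simulated data. Tables were made in Python 3.11.15. Names came from the R64 gene table, which matched 5470 of 5500 frames; no coordinates are printed, as the values name no build. The genes, their 8 companion lists and the tests were chosen with earlier results of these data known. Named genes were the 9 silencing factors, BRE1, the genes past the threshold in each list (with none, the 2 with the smallest p), all genes of the mating-type list, and the 3 nearest by root mean square difference. Alternatives left out arrays in turn, added a dye term, changed centring, scaling, the variance prior, array weights and the genes tested, averaged arrays 1 and 2 and arrays 3 and 4, or turned the ratios with bre1 in Cy3.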

Additional observations from a re-analysis of the deposited data

How the results depend on the processing

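HST1 to HST4 did not pass under the main setting or any of the 13 alternatives; SIR1, SIR2 and RAP1 were tested only with genes on at least 3 or at least 2 arrays, where they did not pass, and SIR3 and SIR4 were not tested. The number of all genes past the threshold, 410, ranged from 0 to 677 with 1 array left out (0 without array 2, with 815 at an unadjusted p under 0.05), and was 897 with a dye term, 685 with array weights, 679 with arrays 1 and 2 and arrays 3 and 4 averaged, and 0 with the ratios of the Cy3 arrays turned (208 unadjusted), all by limma. HST2 was below 0 on all 4 arrays, so its mean with 1 array left out (-0.43 to -0.29) could not change sign. Its limma adjusted p ranged from 0.0880 (dye term) to 0.486 (without array 1), apart from 0.973 with the Cy3 arrays turned. With 1 array left out the mean ranged from -0.13 to 0.12 for HST1, -0.17 to 0.014 for HST4, 0.12 to 0.18 for HST3, -0.21 to 0.24 for HMLALPHA2 and -0.11 to 0.18 for MATALPHA2. Leaving out an array makes the dye orientations unequal, so a dye effect would no longer cancel in such a mean. HST1 changed sign with arrays centred on their medians (-0.017) and with array weights (-0.049), and MATALPHA2 with centring (-0.011) and with equal spread (-0.021). With the Cy3 arrays turned, as if the values had never been set to run the same way, the mean becomes by construction a contrast between the dye orientations and says nothing of stability. It was 0.049 for HST2, -0.033 for HST3, 0.17 for HST4, 0.044 for RAP1, -0.32 for SAS4, 0.087 for RIF2, -0.030 for RTT107, -0.17 for BNA2, 0.15 for HDA1, 0.15 for HOS1, 0.24 for SMK1, 0.043 for QNS1, 0.39 for BNA5, 0.070 for STE12, 0.066 for FAR1, -0.56 for HMLALPHA2 and -0.33 for MATALPHA2, all opposite in sign to the main value. Fitted with genes on at least 3 arrays, SIR1, SIR2 and RAP1 had adjusted p of 0.759, 0.959 and 0.704. No paired analysis was possible because the arrays form a single group of ratios.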
